A study of Mus musculus with 4 samples.

Results

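The genes described here are the amino acid transporters of the families SLC1, SLC7, SLC36, SLC38 and SLC43 together with Slc3a2, the partner chain of many SLC7 members. They were picked out by gene symbol, with earlier results of these data known, and 41 of the 24328 rows of the expression table matched. The RNA, selected by its poly(A) tail, came from satellite cells, the stem cells of skeletal muscle, which perfusion with paraformaldehyde had fixed in the animal before they were sorted. The 2 YFP libraries came from 7-month-old Pax7CreERT2/+; ROSA26YFP/+ mice, and the 2 DEK libraries from 4.5-month-old Pax7CreERT2/+; H11DEK-EGFP/+ mice. All 4 thus carried 1 copy of the Pax7-driven CreERT2, which acts in Pax7-expressing cells once tamoxifen is given; the tamoxifen schedule is not given in the sources used here. Age, reporter and integration site went with the group, so their effects and that of the DEK transgene cannot be told apart. Whether the replicates came from separate animals is not stated, so the p-values rest on a spread among libraries that may be technical. The comparison asked how muscle stem cells given extra Dek, a DNA-binding chromatin protein, differ from reporter-only cells.

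Cells take up and exchange amino acids through membrane carriers that differ in substrate and driving force. Sodium-coupled carriers concentrate small neutral amino acids such as glutamine, exchangers trade these for leucine and other large neutral or cationic amino acids, and proton-coupled carriers work on lysosomes and at the cell surface. In muscle stem cells amino acid supply feeds protein synthesis and the growth kinase mTORC1, whose activity rises as the cells leave quiescence.

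Values are FPKM, the density of sequenced fragments over a transcript scaled to its length and to the library, and are given in the order YFP replicate 1, YFP replicate 2, DEK replicate 1, DEK replicate 2. Changes are log2 fold changes of FPKM + 1, DEK minus YFP, fitted with limma over all genes that reached 1 FPKM in 2 libraries or more. A gene was called at a Benjamini-Hochberg adjusted p under 0.05 over all 12179 genes tested. Read depth is unknown because the table holds no counts. Dek checked the labels, with 512, 504, 3196 and 1639.5 FPKM (log2 fold change 2.17, SE 0.31, adjusted p = 0.0195). Summed FPKM of 12 satellite cell markers, Pax7 among them, was 3398, 3224, 3311 and 3871. Summed FPKM of 15 endothelial markers was 78.8, 75.6, 217 and 184, and Kdr, Flt1, Ptprb and Robo4 were listed at 0 in both YFP libraries. All 11 endothelial markers called higher in DEK were under 1 FPKM in both YFP libraries and entered the test only through DEK, so that count is a description. The 3 tested endothelial markers present in YFP, Eng, Tek and Vwf, were not called. In each of them both DEK values lay above both YFP values (Vwf at 10.6, 3.57, 18.5 and 17.5 FPKM). Over all tested genes 60.9% lay on 1 side without overlap. Over 12 macrophage and monocyte markers the sums were 3.76, 20.1, 98.8 and 123, of which Lyz2 alone made up 0.200, 15.2, 73.4 and 100. C1qa, C1qb, C1qc and Adgre1 were at 0 in both YFP libraries. The 4 of these markers called higher (C1qa, C1qb, C1qc and Csf1r) likewise entered only through DEK, and Cd14, Cd68 and Lyz2 were not called. Over all tested genes 4.57% were called higher and 3.21% lower. Of 8 tested markers of fibro-adipogenic progenitors 4 were called higher and 1 lower (Col1a1). Called higher, with none lower, were 2 of 8 for pericytes and smooth muscle, 2 of 3 for Schwann cells and 1 of 4 for erythroid cells. Of 4 mature myofibre markers 1 was called lower (Ttn) and 0 higher, and of 4 markers of other leukocytes 0 were called. An unadjusted limma p under 0.05 was reached by all tested markers of other leukocytes (4 higher), mature myofibres (2 higher, 2 lower) and Schwann cells (3 higher). It was also reached by 12 of 14 endothelial, 6 of 7 macrophage and monocyte and 3 of 4 erythroid markers, all higher. These counts hold markers that entered only through DEK. For fibro-adipogenic progenitors it was 6 of 8 (5 higher, 1 lower), for pericytes and smooth muscle 5 of 8 (3 higher, 2 lower). For satellite cells it was 6 of 12 (5 higher, 1 lower). The share over all tested genes at this unadjusted p was 29.1%. Of the markers called higher Cd248, Pi16, Myh11 and Hba-a1 entered only through DEK, as did the uncalled leukocyte marker Ptprc. Of the satellite cell markers Cd34 was called higher and none lower. The ribosomal RNA gene Rn45s took 11.8%, 15.7%, 5.15% and 5.55% of each library's summed FPKM. In bulk RNA a change in the number of cells of a type and a change in RNA per cell cannot be told apart, and the part of these other cells in the results below was not tested.

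Of the 41 transporter genes 24 were tested. Of these 1 rose in DEK, the glutamine transporter Slc38a3 (3.90-fold), and 1 fell, the neutral amino acid exchanger light chain Slc7a8 (2.37-fold lower). The other 22 did not pass. The called share of 8.33% lay close to the 7.78% of all tested genes that were called (4.57% called higher, 3.21% called lower), and the number of calls is thus no result about the family. Higher genes were 58.8% of all calls, but 45.4% after quantile normalization and 43.2% with Rn45s removed, while 1 transporter was called in each direction in all of these. An unadjusted p under 0.05 was reached by 10 members (6 higher, 4 lower; 41.7%, against 29.1% of all tested genes). Both DEK values lay on 1 side of both YFP values in 18 members (75.0%, against 60.9% of all tested genes), 10 higher and 8 lower. Slc38a4 counts among the 6 higher by p and, with Slc7a1, among these 10. Both genes reached 1 FPKM in both DEK libraries but in 1 YFP library, so YFP alone would not have brought them into the test. The median log2 fold change of the tested members was -0.03, beside 0.05 for all tested genes, with 12 above and 12 below 0. With 2 libraries against 2 the smallest exact permutation p is 0.333, so no single gene could pass such a test.

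**Figure D1:**
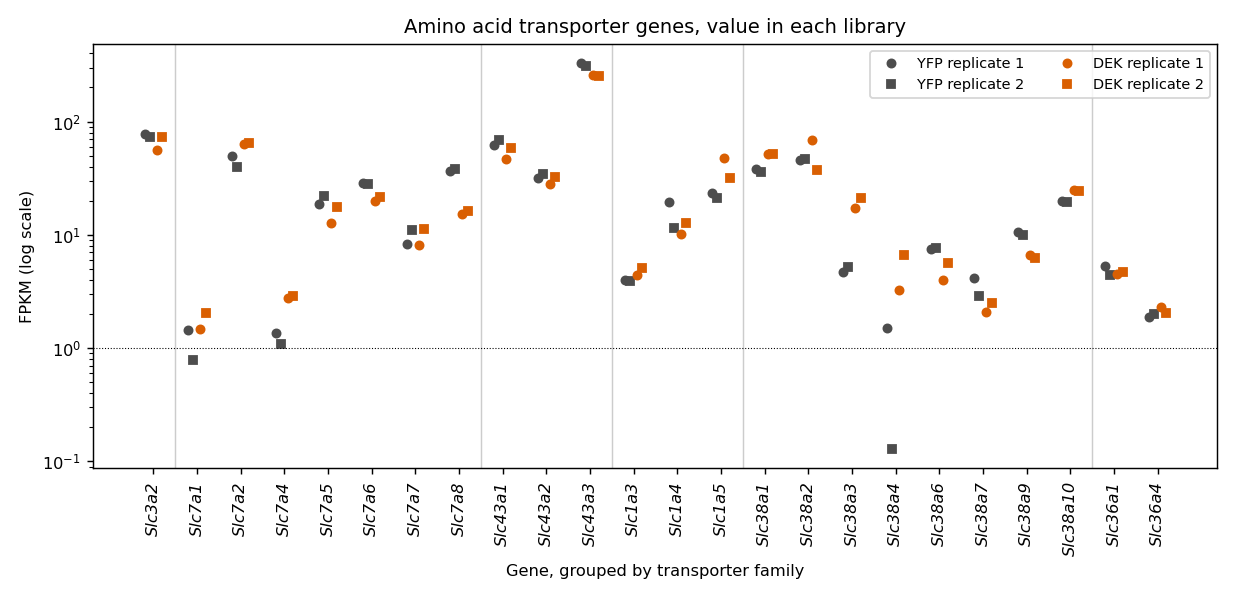
FPKM on a log axis for the 24 tested transporter genes in each of the 4 libraries, grouped by family; the dotted line marks 1 FPKM. Slc38a3 stands higher in both DEK libraries (17.2 and 21.3) than in YFP (4.71 and 5.18), Slc7a8 stands lower (15.4 and 16.1 against 36.4 and 38.1), and Slc43a3 has the highest value in every library.

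Slc3a2 encodes the CD98 heavy chain, a glycoprotein that brings SLC7 light chains to the cell surface and is needed for their transport. It stood at 78.5, 73.2, 56.3 and 73.6 FPKM (log2 fold change -0.23, SE 0.17, adjusted p = 0.411), and the groups overlapped because DEK replicate 2 lay between the YFP values. The light chain Slc7a8 (LAT2) exchanges small and large neutral amino acids. Its values were 36.4, 38.1, 15.4 and 16.1 FPKM. Both DEK libraries lay far below both YFP libraries, and the replicates of each group were close (37.3 ± 1.16 in YFP and 15.7 ± 0.508 in DEK; SD, n = 2 each). The log2 fold change was -1.19 (SE 0.14, adjusted p = 0.012). It ran from -1.33 to -1.03 over 18 alternative fits. The call ended with any 1 library left out on the same genes (adjusted p = 0.0716 to 0.109, when limma called 0 to 184 genes in all). With the low filter redone on the 3 libraries left, it held without a DEK library (adjusted p = 0.0321 and 0.016) and ended without a YFP library (0.0693 and 0.0931).

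None of the other light chains passed. Slc7a5 (LAT1), the main leucine exchanger of growing cells, stood at 18.7, 22.1, 12.8 and 17.7 FPKM (log2 fold change -0.41, SE 0.20, adjusted p = 0.241). Slc7a6 (y+LAT2), which exports arginine against neutral amino acids, stood at 28.6, 28.3, 19.8 and 21.6 FPKM (log2 fold change -0.44, SE 0.14, adjusted p = 0.113). In both genes the DEK values lay below the YFP values without overlap. Slc7a7 (y+LAT1), a carrier of the same type that is mutated in lysinuric protein intolerance, had overlapping groups at 8.25, 11.0, 8.11 and 11.2 FPKM (log2 fold change 0.002, SE 0.23). Its exons overlap those of Oxa1l on the other strand (21.4, 18.5, 12.8 and 15.3 FPKM), and reads in the shared stretch cannot be told apart unless strand was used, which is not stated. Slc7a11 (xCT), the cystine and glutamate exchanger, stayed at 0.256 to 0.537 FPKM in DEK and 0.253 to 0.403 in YFP and was not tested. Slc7a10 was listed at 0 except in DEK replicate 2 (0.152 FPKM).

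Summed over Slc7a5, Slc7a6, Slc7a7, Slc7a8, Slc7a10 and Slc7a11, the light chains came to 92.5 and 99.7 FPKM in YFP and to 56.6 and 66.97 FPKM in DEK. The share of Slc7a8 in that sum was 39.4% and 38.2% in YFP and 27.2% and 24.05% in DEK. Without Slc7a8 the sums were 56.0, 61.6, 41.2 and 50.9 FPKM, still without overlap. Per unit of heavy chain the light chain sum was 1.18 and 1.36 in YFP and 1.01 and 0.909 in DEK. These sums are descriptions with no test of their own.

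**Figure D2:**
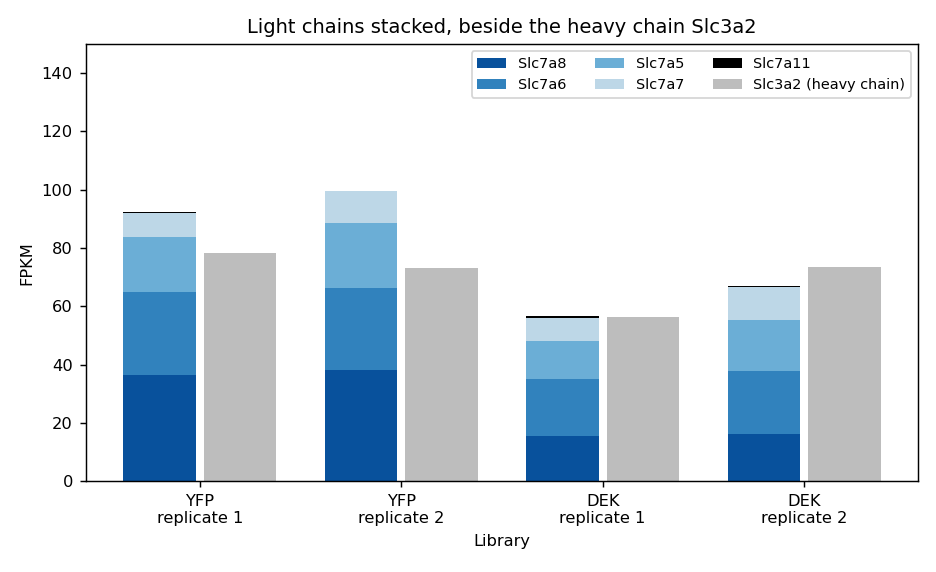
Stacked bars give the FPKM of the light chains in each library (Slc7a10, at most 0.152 FPKM, is not drawn) and grey bars the heavy chain Slc3a2, on an axis from 0. The Slc7a8 segment is shorter in both DEK libraries, and the stack exceeds the heavy chain in YFP (ratios 1.18 and 1.36) but is near it in DEK (1.01 and 0.909).

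Promoter sequences from RefSeq (GRCm38.p6, not the mm9 build of the expression table; 300 bases each, most of them before the annotated start) were matched for 30 of the 41 genes. They were searched on both strands for TGATGNAA, the composite element bound by C/EBP and ATF4 in the amino acid response, and TGACNNNGC, the antioxidant response element bound by Nrf2. The first is held by 3 of the 30 genes, Slc1a4, Slc7a7 and Slc7a11, and by 4.51% of all genes in the table; the second by 5 of the 30, Slc36a1, Slc38a2, Slc43a1, Slc7a1 and Slc7a6, and by 14.0% of all genes. A match is a stretch of letters and not a bound site. No sequence was matched for Slc38a3, the transporter called higher, so its promoter was not searched. The same holds for Slc1a5, Slc36a2, Slc38a1, Slc43a3, Slc7a2, Slc7a3, Slc7a4, Slc7a5, Slc7a12 and Slc7a13. Shown are the promoter of Slc7a8, the light chain that fell, in which neither was found, and those of Slc7a11 and Slc1a4, in which capitals mark TGATGNAA or its reverse complement. They lie at chr14:54781837-54782136, chr3:50443564-50443863 and chr11:20332664-20332963, all on the minus strand, and are written 5′ to 3′ along the gene.
Slc7a8: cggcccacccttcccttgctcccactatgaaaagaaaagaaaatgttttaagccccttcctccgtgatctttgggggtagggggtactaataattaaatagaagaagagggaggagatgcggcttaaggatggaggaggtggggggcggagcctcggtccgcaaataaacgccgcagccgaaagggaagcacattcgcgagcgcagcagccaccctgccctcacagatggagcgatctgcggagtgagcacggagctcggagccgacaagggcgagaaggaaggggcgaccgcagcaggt
Slc7a11: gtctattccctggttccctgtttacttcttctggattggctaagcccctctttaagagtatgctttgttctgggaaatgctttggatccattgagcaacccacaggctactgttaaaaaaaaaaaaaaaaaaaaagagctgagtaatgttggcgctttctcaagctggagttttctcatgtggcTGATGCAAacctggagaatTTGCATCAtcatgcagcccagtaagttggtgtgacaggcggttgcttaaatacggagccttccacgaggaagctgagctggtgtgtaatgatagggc
Slc1a4: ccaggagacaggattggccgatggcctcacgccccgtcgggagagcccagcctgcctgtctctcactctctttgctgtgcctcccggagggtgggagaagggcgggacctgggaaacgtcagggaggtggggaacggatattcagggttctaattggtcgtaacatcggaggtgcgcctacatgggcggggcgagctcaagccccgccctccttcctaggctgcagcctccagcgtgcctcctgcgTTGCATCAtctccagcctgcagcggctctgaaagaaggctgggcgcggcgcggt
Of the 3 genes Slc7a8 fell, Slc1a4 was not called and Slc7a11 was too low to be tested.

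The cationic carriers of SLC7 import arginine, lysine and ornithine without a heavy chain. Slc7a2 (CAT2) was the most abundant, at 49.5, 39.5, 62.96 and 65.3 FPKM (log2 fold change 0.53, SE 0.16, adjusted p = 0.0986), without overlap between the groups. Slc7a1 (CAT1), the carrier found in most cells, was near the lower limit at 1.46, 0.788, 1.49 and 2.03 FPKM (adjusted p = 0.357). Slc7a4, whose substrate is not established, stood at 1.35, 1.09, 2.74 and 2.91 FPKM (log2 fold change 0.79, SE 0.21, adjusted p = 0.0719). Its exons overlap those of the ATP-gated channel gene P2rx6 on the other strand (5.64, 4.22, 8.36 and 7.44 FPKM), so reads may be shared. Slc7a3 (CAT3) did not reach 1 FPKM, at 0.182, 0, 0.430 and 0.615. All 4 had a higher mean in DEK, and none of the 3 tested was called.

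SLC43 members carry their substrates down the gradient without coupling. Slc43a3, which transports purine nucleobases rather than amino acids, was the most abundant gene of the group at 327, 312, 259.9 and 255 FPKM (log2 fold change -0.31, SE 0.13, adjusted p = 0.180). Slc43a1 (LAT3), a carrier of branched-chain amino acids and phenylalanine, stood at 62.0, 68.8, 46.3 and 58.0 FPKM (log2 fold change -0.33, SE 0.16, adjusted p = 0.242). In both the DEK values lay below the YFP values without overlap and did not pass. Slc43a2 (LAT4), of the same function, had overlapping groups at 31.7, 34.1, 27.9 and 32.4 FPKM (adjusted p = 0.627).

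SLC1 holds the glutamate carriers and a pair of neutral amino acid exchangers. The exchanger Slc1a5 (ASCT2), a main route for glutamine, stood at 23.6, 21.0, 47.4 and 31.4 FPKM. Both DEK values were above both YFP values, with DEK replicate 1 the highest (log2 fold change 0.77, SE 0.22, adjusted p = 0.0872). The size rested on DEK replicate 1, with a log2 fold change of 0.48 without it and 1.06 without DEK replicate 2. The adjusted p ran from 0.0263 to 0.306 over 18 alternatives, with a call in 1 of them (without DEK replicate 2, with the low filter redone). Slc1a4 (ASCT1), which carries alanine, serine and cysteine, had overlapping groups at 19.4, 11.4, 10.2 and 12.8 FPKM (log2 fold change -0.35, SE 0.27, adjusted p = 0.430). Its difference rested on YFP replicate 1, since the log2 fold change was 0.004 without it. The glutamate carrier Slc1a3 (GLAST) stood at 3.96, 3.87, 4.404 and 5.07 FPKM (adjusted p = 0.478). The other glutamate carriers, Slc1a1, Slc1a2 and Slc1a6, were listed at 0 in both YFP libraries and at no more than 0.307 FPKM in DEK, and Slc1a7 was listed at 0 throughout.

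SLC38 members couple neutral amino acids to sodium. The system N carrier Slc38a3 (SNAT3) moves glutamine, asparagine and histidine in either direction. It stood at 4.71, 5.18, 17.2 and 21.3 FPKM. Both DEK libraries were above both YFP libraries by far more than the replicates differed (4.94 ± 0.338 in YFP and 19.3 ± 2.88 in DEK; SD, n = 2 each). The log2 fold change was 1.76 (SE 0.19, adjusted p = 0.00835), and 0.903% of all tested genes had a smaller p. By mean level it moved from rank 17 of the 24 tested transporters in YFP to rank 11 in DEK. Its log2 fold change ran from 1.28 to 1.94 over the 18 alternatives, the lowest with an added value of 5. The call ended with any 1 library left out on the same genes (adjusted p = 0.0698 to 0.0969). With the filter redone it held without a DEK library (0.0171 and 0.0169) and ended without a YFP library (0.0536 and 0.0618).

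The other system N carrier, Slc38a5, was under the tested range at 0.544, 0.494, 0 and 0.091 FPKM. System A carriers concentrate alanine, serine and glutamine inside the cell. Slc38a1 (SNAT1) stood at 37.8, 35.6, 51.4 and 51.9 FPKM (log2 fold change 0.48, SE 0.13, adjusted p = 0.081), with no overlap and close replicates. Slc38a2 (SNAT2), which amino acid shortage is known to induce, stood at 45.6, 47.1, 68.2 and 37.3 FPKM, so that the DEK libraries lay on either side of YFP (log2 fold change 0.12, SE 0.28, adjusted p = 0.802). The fitted value turned to -0.31 without DEK replicate 1 and was 0.55 without DEK replicate 2. Slc38a4, an imprinted member best known from liver and placenta, stood at 1.502, 0.128, 3.24 and 6.65 FPKM (log2 fold change 1.76, SE 0.46, adjusted p = 0.071). Its standard error was the largest among the tested transporters, and its fitted change ran from 0.76 with an added value of 5 to 2.97 with 0.1, without a call in any of 17 alternatives.

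Among the remaining SLC38 genes, Slc38a9, the lysosomal protein that signals arginine to mTORC1, stood at 10.5, 9.96, 6.62 and 6.30 FPKM (log2 fold change -0.59, SE 0.17, adjusted p = 0.087). Slc38a7, which releases glutamine from lysosomes, stood at 4.195, 2.86, 2.06 and 2.495 FPKM (adjusted p = 0.257). Slc38a6 was at 7.46, 7.64, 4.01 and 5.68 FPKM (log2 fold change -0.56, SE 0.21, adjusted p = 0.1498). In these 3 genes both DEK values were below both YFP values. Slc38a10, a poorly described member, lay the other way at 19.98, 19.5, 25.0 and 24.2 FPKM (log2 fold change 0.30, SE 0.14, adjusted p = 0.220). None of these 4 was called in any alternative. Exons of Slc38a9, Slc38a10, Slc43a2 and Slc7a2 overlap non-coding genes on the other strand that have no value here, so reads of the pair cannot be told apart unless strand was used. Of the proton-coupled family, Slc36a1 (PAT1), which exports small amino acids from lysosomes, stood at 5.36, 4.45, 4.51 and 4.73 FPKM (adjusted p = 0.845), and Slc36a4 (PAT4), a carrier of proline and tryptophan, at 1.86, 1.99, 2.32 and 2.03 FPKM (adjusted p = 0.734).

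**Figure D3:**
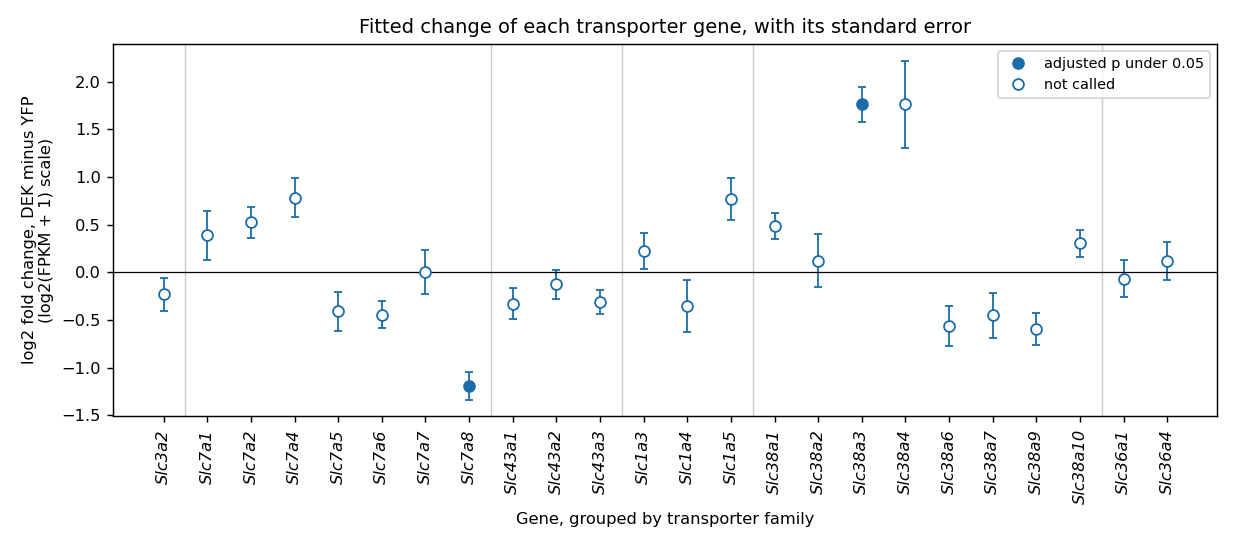
Fitted log2 fold change of each tested transporter, DEK minus YFP on the log2(FPKM + 1) scale, with its standard error; filled points passed an adjusted p under 0.05. Slc38a3 (1.76) and Slc7a8 (-1.19) are filled, and Slc38a4, not filled, has the widest error (SE 0.46).

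The 17 members outside the test had no value above 0.792 FPKM. Slc1a7, Slc36a3, Slc38a8, Slc7a12 and Slc7a9 were listed at 0 in all 4 libraries. A further 7 (Slc1a1, Slc1a2, Slc1a6, Slc38a11, Slc7a10, Slc7a13 and Slc7a14) were at 0 in both YFP libraries and above 0 in at least 1 DEK library. The last 5 had values in both groups, and of these Slc7a15, with 0.434, 0.503, 0.441 and 0.792 FPKM, was the highest. Of the 24 tested members 22 reached 1 FPKM in all 4 libraries. The other 2, Slc38a4 and Slc7a1, reached it in both DEK libraries but in 1 YFP library, so DEK alone would have brought them into the test and YFP alone would not.

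Genes that respond to amino acid supply or use the imported amino acids gave mixed results. The list for ATF4, the transcription factor of the amino acid response, held Atf4 itself and the kinase gene Eif2ak4 beside other genes of the response. Of its 23 tested genes 1 was called higher and 2 lower (13.0% called, beside 7.78% of all genes, with a median log2 fold change of 0.22). The phosphatase subunit Ppp1r15a stood at 27.0, 27.5, 1072 and 148 FPKM (log2 fold change 3.82, SE 0.83, adjusted p = 0.0487), a call kept in 5 of 18 alternatives. It was lost with robust limma (adjusted p = 0.152), no low filter (0.145), no variance trend (0.0617) and added values of 0.1 (0.0603) or 5 (0.0524). TMM factors (0.0578), quantile normalization (0.0545) and Rn45s removed (0.0558) also ended it. DEK replicate 1 was by far the higher DEK library: the log2 fold change was 2.39 without it and 5.25 without DEK replicate 2, and without DEK replicate 2 the genes called higher in this list went from 1 to 4. Atf4 itself stood at 51.1, 66.2, 294 and 99.7 FPKM (adjusted p = 0.102). Ddit3 and Atf3 were also highest in DEK replicate 1 (76.3 and 43.001 FPKM, against 14.5 and 1.79 in DEK replicate 2). Higher in DEK replicate 2 than in 1 were Aldh18a1, Atf5, Ddit4, Eif2ak4, Gars, Mthfd2, Phgdh, Psat1, Psph, Pycr1, Shmt2 and Vldlr. The other tested genes of the list were higher in DEK replicate 1. Both DEK values lay above both YFP values in 9 tested genes and below in 6, and 8 overlapped. Over all tested genes 60.9% did not overlap. Called lower were the lipoprotein receptor Vldlr (155, 141, 58.9 and 63.1 FPKM; log2 fold change -1.26, adjusted p = 0.00882; called in 12 of 18 alternatives) and the serine synthesis enzyme Psat1 (24.8, 20.7, 11.1 and 13.3 FPKM; log2 fold change -0.84, adjusted p = 0.0461; called in 6 of 18). Asparagine synthetase Asns, a standard readout of this response, was at 0.410, 0.387, 1.14 and 0.274 FPKM and was not tested. Cth, which makes cysteine and also counts among the glutathione genes, stood at 3.91, 5.38, 10.5 and 7.38 FPKM (adjusted p = 0.0969).

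Of the genes through which lysosomes report amino acids to mTORC1, 28 were tested, 0 were called higher by limma (2 at an unadjusted p under 0.05) and 2 were called lower (median -0.15). The called share of 7.14% lay near the 7.78% of all tested genes. The folliculin gene Flcn, part of the activator of Rag GTPases, fell from 17.9 and 14.4 to 7.23 and 7.57 FPKM (log2 fold change -1.02, SE 0.18, adjusted p = 0.0322), a call kept in 8 of 18 alternatives. Gatsl2, a relative of the arginine sensor Castor, fell from 49.1 and 53.9 to 26.9 and 33.7 FPKM (log2 fold change -0.75, SE 0.17, adjusted p = 0.0497). That call was kept in 7 of 18 alternatives and ended with an added value of 0.1 (0.0576), without the variance trend (0.0725) and with no low filter (0.097). Mios, part of the GATOR2 complex, was at 18.4, 15.1, 31.97 and 26.6 FPKM (adjusted p = 0.0558; called in 2 of 18 alternatives). Rragc, a Rag GTPase, was at 34.7, 34.4, 25.02 and 21.8 FPKM (adjusted p = 0.0775). Both had groups that did not overlap. Mtor was at 10.7, 10.8, 9.17 and 11.1 FPKM. Of 12 tested amino acid transporters from other families, limma called 0 (3 higher and 1 lower at an unadjusted p under 0.05; 33.3%, beside 29.1% of all genes). The glycine transporter Slc6a9 came nearest at 4.01, 4.91, 8.28 and 12.0 FPKM (log2 fold change 1.01, SE 0.23, adjusted p = 0.0552). It was called in 2 of 18 alternatives, over which the log2 fold change ran from 0.67 to 1.26. The next by p were Slc25a22, Slc16a10 and Slc15a4, with log2 fold changes of 0.61, 0.83 and -0.49 (adjusted p = 0.0981, 0.136 and 0.172). Of 13 tested glutathione genes limma also called 0. An unadjusted p under 0.05 was reached by 4 of them (Cbs, Cth and Ggct higher, Gclc lower), and this share of 30.8% is near the 29.1% of all tested genes.

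Enzymes of glutamine, glutamate and aspartate had 5 of 15 tested members called (33.3%, beside 7.78% of all genes), in both directions, with a median of 0.08. Glutamine synthetase Glul fell from 233 and 235 to 139 and 131 FPKM (log2 fold change -0.79, SE 0.13, adjusted p = 0.0261; called in 10 of 18 alternatives). Gpt2, an alanine transaminase, fell from 45.3 and 35.4 to 12.4 and 16.8 FPKM (log2 fold change -1.41, SE 0.21, adjusted p = 0.0206; called in 11 of 18). Argininosuccinate synthase Ass1 fell from 45.3 and 43.6 to 20.3 and 21.3 FPKM (log2 fold change -1.06, SE 0.14, adjusted p = 0.015; called in 12 of 18). These make glutamine, alanine and the precursor of arginine. Ornithine aminotransferase Oat rose from 209.96 and 228 to 339 and 437 FPKM (log2 fold change 0.81, adjusted p = 0.0447; called in 5 of 18). Ppat, which spends glutamine in the first committed step of purine synthesis, rose from 6.34 and 5.84 to 12.2 and 11.0 FPKM (log2 fold change 0.83, adjusted p = 0.0451; called in 6 of 18). Both calls ended with Rn45s removed (limma adjusted p = 0.0685 for Oat and 0.0606 for Ppat), an added value of 0.1 (0.0527 and 0.0515) and no low filter (0.106 and 0.0927), and that of Oat also with quantile normalization (0.0524) and without the variance trend (0.0682).

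Branched-chain amino acid breakdown had 2 of 16 tested members called, both higher (12.5%, beside 7.78% of all genes, with a median of 0.41). An unadjusted limma p under 0.05 was reached by 9 (56.2%, beside 29.1% of all tested genes), 7 higher and 2 lower. The 2 lower genes were Acad8 and Bcat1, neither of them called. Bcat1 had the largest change of the list in size, at 5.43, 1.90, 0.200 and 0.964 FPKM (log2 fold change -1.49, SE 0.44, limma adjusted p = 0.0918). Ivd, the isovaleryl-CoA dehydrogenase of leucine breakdown, rose from 46.8 and 39.9 to 89.97 and 87.98 FPKM (log2 fold change 1.02, SE 0.14, adjusted p = 0.0181; called in 11 of 18 alternatives). Mccc2, a subunit of the carboxylase after it, rose from 33.2 and 40.6 to 67.9 and 60.9 FPKM (log2 fold change 0.79, SE 0.16, adjusted p = 0.0417; called in 4 of 18). The Mccc2 call ended with TMM factors (limma adjusted p = 0.0541), quantile normalization (0.059), Rn45s removed (0.0674), no variance trend (0.0635) and no low filter (0.0871). Next by p came Dbt and Bckdhb, subunits of the branched-chain ketoacid dehydrogenase, with log2 fold changes of 0.58 and 0.61 (adjusted p = 0.0564 and 0.0796). With any 1 library left out on the same genes the calls in these lists ended, except Ppp1r15a without DEK replicate 2.

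**Figure D4:**
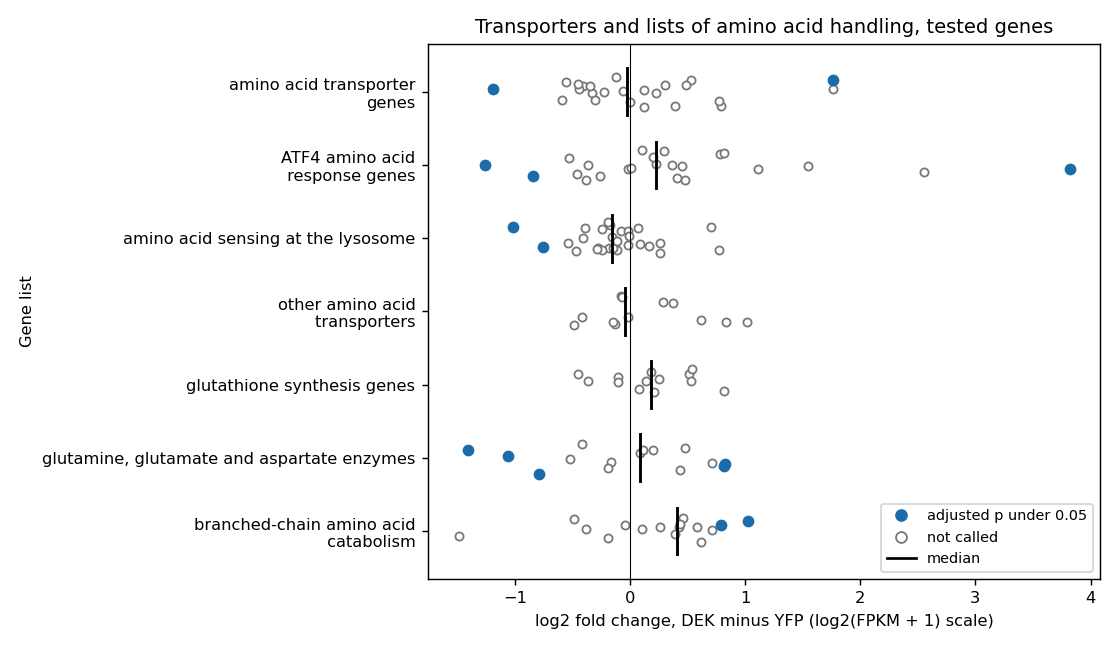
Log2 fold changes (DEK minus YFP, log2(FPKM + 1) scale) of the tested genes of each list; vertical position within a row is arbitrary, filled points passed an adjusted p under 0.05 and bars mark list medians. The transporters centre near 0 (median -0.03), and the branched-chain breakdown genes have the highest median (0.41).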

How the data were processed

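Polyadenylated RNA from fixed, sorted satellite cells was measured in 4 libraries, 2 YFP and 2 DEK. The submitters' processing notes name the mm9 build, R 3.4.1, StringTie 1.3.3 and STAR 2.5.3a; settings, annotation and strand use are not given in the sources used here. The deposited table holds 1 value per symbol and library, read here as FPKM; that unit is inferred from the values, and TPM was not told apart from it. All 4 value columns were used.

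Here log2(FPKM + 1) was fitted in R 4.3.3 with limma 3.58.1 (variance trend, no covariates, two-sided) over the 12179 genes that reached 1 FPKM in 2 libraries or more, with Benjamini-Hochberg adjustment. Fold changes on this scale understate genes with low values. The script was tested on simulated data. Transporters that were called, or whose group mean reached 10 FPKM, are described singly, most others also. From each of 6 pathway lists up to 4 genes with the smallest p were described. Atf4, Ddit3, Atf3, Asns, Ppat, Mtor, Bcat1 and Acad8 were chosen after their values were seen. Members and lists were chosen with earlier results of these data known. Alternatives were each library left out (on the same genes, or with the filter redone), the replicate number as a block, added values of 0.1 or 5, no filter or 5 FPKM, TMM factors (unweighted, trims of 30 and 5%), quantile normalization, removal of the ribosomal RNA gene Rn45s with rescaling, and limma without the trend or robust. Exon overlaps come from the GENCODE annotation, joined by symbol, and 9 lists of cell type markers were counted alike.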

Additional observations from a re-analysis of the deposited data

How the results depend on the processing

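The number of transporters called was 2 in each setting that kept all 4 libraries. It was 0 to 3 with a library left out (0 to 2 higher, 0 to 1 lower). Over all genes the count of calls went from 948 to 618 with the replicate number as a block and to 293 with no low filter. With a library left out it ran from 0 to 184 on the same genes and from 83 to 780 with the filter redone (168 without YFP replicate 1, 83 without YFP replicate 2, 302 without DEK replicate 1). At 0 calls, without DEK replicate 1 on the same genes, limma gave 5 transporters and 2215 genes an unadjusted p under 0.05. A lone library of a group is taken there to vary like the other group. Same-numbered libraries shared little of their deviation from the group means, with a correlation of 0.0635 across genes. Whether they were prepared together cannot be read from this value. The block kept both transporter calls (adjusted p = 0.0165 for Slc38a3 and 0.0274 for Slc7a8), while among the list genes it ended those of Psat1, Flcn, Gatsl2, Glul, Oat, Ppat and Mccc2. Removing Rn45s and rescaling shifted the median over all tested genes, on the log2 scale, from 0.05 to -0.07 and that of the transporters from -0.03 to -0.15. The log2 fold change of 4 uncalled genes changed sign. Slc38a2 went to -0.0104 with Rn45s removed, and Slc7a7 to -0.0361 with TMM factors, -0.0224 with quantile normalization and -0.12 with Rn45s removed. With a library left out, Slc1a4 ran from -0.708 to 0.00361, Slc36a1 from -0.178 to 0.0443, Slc38a2 from -0.306 to 0.548, and Slc7a7 from -0.208 (without DEK replicate 2; -0.184 without YFP replicate 1) to 0.212. The other tested transporters kept their direction in every alternative. Depth limits the low genes, but cannot be read from FPKM.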

Other observations

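Summed over all 41 transporter genes, the libraries held 831 and 801 FPKM in YFP and 763 and 770.4 FPKM in DEK. Slc43a3 alone made up 39.3% and 39.0% of the sum in YFP and 34.1% and 33.1% in DEK. Among the families, SLC38 summed to 132 and 128 FPKM in YFP against 178 and 156 FPKM in DEK, and SLC43 to 421 and 415 FPKM against 334 and 346 FPKM. These sums have no test.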
